A study of Mus musculus with 6 samples.

Results

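The fibroblast growth factor (FGF) receptors and ligands described here are 10 genes: the receptors Fgfr1, Fgfr2, Fgfr3, Fgfr4 and Fgfrl1 and the ligands Fgf2, Fgf7, Fgf18, Fgf9 and Fgf10. They were chosen by name, each through the probe set with 1 gene symbol and the highest mean, and all 10 were among the 22180 genes measured. Fgf10 had 2 such probe sets and each of the others had 1. The data are 6 Affymetrix arrays of the line MC3T3-E1, pre-osteoblasts from mouse calvaria. All cells were grown to confluence and then kept to day 14 with ascorbic acid at 50 µg/ml and β-glycerophosphate at 10 mM, an osteogenic mix. In 3 samples the medium also held 1 µM NU7441, which blocks the catalytic subunit of DNA-dependent protein kinase (DNA-PKcs), and in 3 it held the solvent DMSO. The comparison asks which transcripts of differentiating osteoblasts differ when this kinase is inhibited.

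FGFs are secreted proteins that bind receptor tyrosine kinases together with heparan sulfate, and the activated receptor recruits adaptors that switch on the Ras and ERK cascade, among others. The cascade in turn induces its own inhibitors, such as the Sprouty proteins and the dual-specificity phosphatases. In the skeleton FGFR1 and FGFR2 act in osteoblasts and their progenitors, and FGFR3 restrains growth plate chondrocytes and also acts in osteoblasts. Activating mutations of these receptors cause dwarfism or premature fusion of the skull sutures.

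The arrays had medians from 6.38 to 6.42 (log2) and lower quartiles from 5.11 to 5.16. Whether replicates were separate cultures is not stated, so the p-values below rest on a spread that could be technical, and precision is limited by how few arrays there are. Osteoblast markers were present, among them Col1a1, a chain of type I collagen, at 13.47 (SD 0.021) in DMSO, Ibsp (bone sialoprotein) at 11.95 (SD 0.65) and Sp7 (osterix) at 10.23 (SD 0.40), n = 3 each. The leukocyte marker Ptprc, at 4.59 (SD 0.13, n = 3), and the epithelial marker Epcam, at 4.93 (SD 0.15, n = 3), were below the lower quartile of all genes, 5.46. Other markers on the same lists were above the median of all genes, 6.79: the macrophage genes Cd68 at 7.92 (SD 0.34) and Lyz2 at 7.17 (SD 0.12), and the epithelial genes Krt8 at 6.90 (SD 0.060) and Cdh1 at 6.88 (SD 0.11), n = 3 each.

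Among the receptors Fgfr3 stood furthest apart between the groups. Fgfr1 differed least, by 0.020, and its sign turned without DMSO 2 or with array weights. All 5 receptors had a higher mean with NU7441, with a median log2 difference of 0.20, against 51.3% of all genes higher and a median of 0.0036. Of these, 3, namely Fgfr3, Fgfr4 and Fgfrl1, had an unadjusted p under 0.05, and in the same 3 every NU7441 array lay above every DMSO array. No receptor passed the test over all genes, and the ligands were 2 higher and 3 lower with a median of -0.035 and 0 at an unadjusted p under 0.05. Whether receptors and ligands differ in their response was not tested. Over all genes limma called 0%, that is 0 of 22180 at an adjusted p under 0.05. In the same fit 6.79% of all genes had an unadjusted p under 0.05, made up of 3.49% of all genes higher and 3.30% lower with NU7441. Groups that do not overlap were found in 12.8% of genes, 6.13% with NU7441 above and 6.64% with NU7441 below. With each array centred on its median, the genes at an unadjusted p under 0.05 were 560 higher and 908 lower in place of 775 and 731, while the 5 receptors were again all higher, 3 of them at that p, as they were with quantile normalization.

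**Figure D1:**
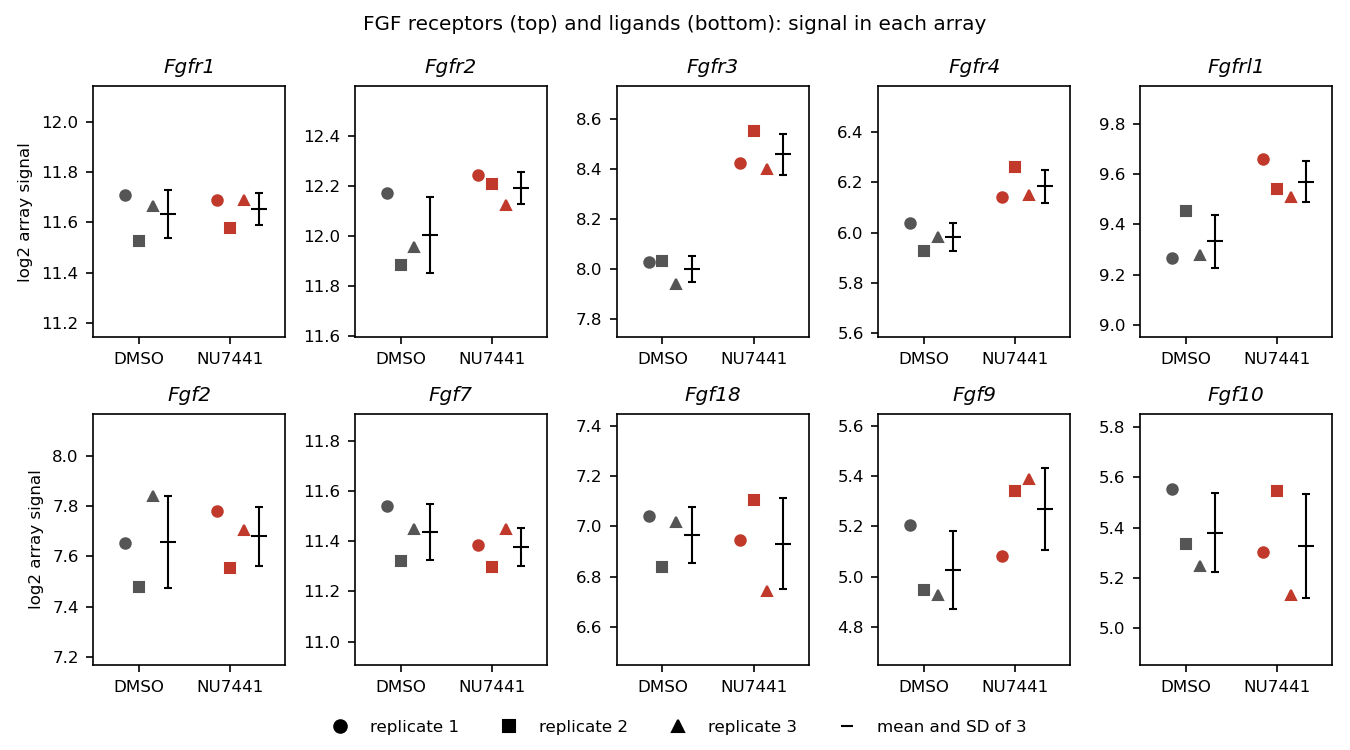
Log2 array signal of the 10 genes in each of the 3 DMSO (grey) and 3 NU7441 (red) arrays, with the mean and SD beside them; every panel spans 1 log2 unit. Fgfr3 has NU7441 values from 8.40 to 8.55 above DMSO values from 7.94 to 8.03, while the ligand groups overlap.

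Fgfr3 encodes a receptor tyrosine kinase that FGF9 and FGF18, among others, activate. Its log2 signal was 8.03, 8.03 and 7.94 in DMSO 1 to 3 and 8.42, 8.55 and 8.40 in NU7441 1 to 3. The lowest NU7441 array lay 0.37 above the highest DMSO array, a gap wider than the range of either group. The difference was 0.46 (SE 0.071, n = 3 each), or 1.37-fold with a 95% interval from 1.22 to 1.54-fold. In limma its unadjusted p was 0.000339, the 6th smallest of all genes, and its adjusted p was 0.598, so it did not pass. Same-numbered arrays differed by 0.39, 0.52 and 0.46, all with NU7441 above. With the replicate number as a block the adjusted p in limma was 0.353, a fit in which 9.37% of genes had an unadjusted p under 0.05 and 0% an adjusted one. The block combined with an intensity trend and a robust prior gave Fgfr3 an adjusted p of 0.0302 in limma, 1 of 100 genes called there (0.451%). Over all alternatives its difference ran from 0.41 to 0.49 and its adjusted p from 0.0302 to 0.912, and its unadjusted p was at most 0.00181 with any 1 array left out.

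Fgfrl1 encodes a receptor that binds FGFs but lacks the intracellular tyrosine kinase domain. It was at 9.27, 9.45 and 9.28 in DMSO 1 to 3 and at 9.66, 9.54 and 9.51 in NU7441 1 to 3. The groups did not overlap, but only 0.054 separated DMSO 2, the highest control, from NU7441 3. The difference was 0.24 (SE 0.081, n = 3 each), 1.18-fold with a 95% interval from 1.03 to 1.35-fold (limma adjusted p = 0.699). Same-numbered arrays differed by 0.40, 0.086 and 0.23.

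Fgfr4, the receptor best known for FGF19 and FGF15 signalling in liver, was at 6.04, 5.93 and 5.98 in DMSO 1 to 3 and at 6.14, 6.26 and 6.15 in NU7441 1 to 3. The groups were separated by 0.10. Its difference was 0.20 (SE 0.069, n = 3 each), 1.15-fold with a 95% interval from 1.03 to 1.29-fold (limma adjusted p = 0.699). The signal was below the median of all genes, 6.79, and with no measure of background used here the size of a difference in transcript is uncertain. Both Fgfr4 and Fgfrl1 depended on single arrays: the unadjusted p of Fgfr4 was 0.05 or more without DMSO 2, DMSO 3 or NU7441 2, up to 0.0832, and that of Fgfrl1 without DMSO 1, DMSO 3 or NU7441 1, up to 0.0785. Without DMSO 3 the number of genes among the 10 at an unadjusted p under 0.05 was 1 in place of 3.

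Fgfr2, a main receptor of the osteoblast lineage whose epithelial splice form binds FGF7 and FGF10, was at 12.17, 11.88 and 11.96 in DMSO 1 to 3 and at 12.24, 12.21 and 12.12 in NU7441 1 to 3. DMSO 1 lay among the NU7441 values, above NU7441 3, and the other 2 controls lay below all of them. The difference was 0.19 (SE 0.091, n = 3 each), with a 95% interval from 0.98 to 1.32-fold (limma adjusted p = 0.764). Leaving out 1 array gave between 0.13, without DMSO 2, and 0.27, without DMSO 1, with an unadjusted p under 0.05 in 1 of 6 cases (0.0122, without DMSO 1) and up to 0.216. The probe set does not tell splice forms apart in these values.

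Fgfr1, the other main receptor of osteoblast progenitors, was at 11.71, 11.53 and 11.67 in DMSO 1 to 3 and at 11.69, 11.58 and 11.69 in NU7441 1 to 3. The NU7441 values lay inside the range of the controls. Its difference of 0.020 (SE 0.076, n = 3 each) had a 95% interval from 0.90 to 1.15-fold, and its sign turned without DMSO 2 (-0.034) and with array weights (-0.0054). The interval of Fgfr1 ended below the lower bound of Fgfr3, 1.22-fold, but whether the 2 responses differ was not tested.

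**Figure D2:**
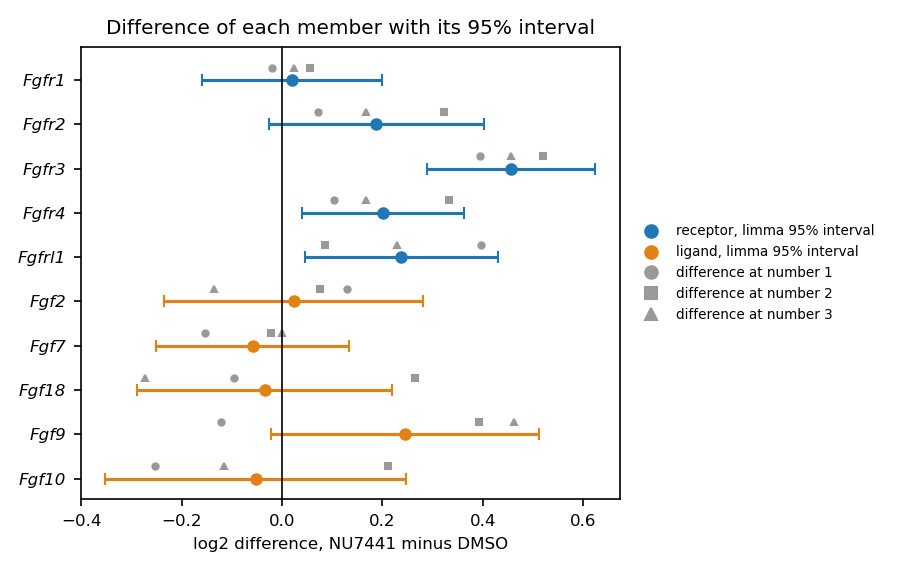
Log2 difference, NU7441 minus DMSO, of each receptor (blue) and ligand (orange) with its 95% interval from limma, and the differences between same-numbered arrays in grey. The intervals of Fgfr3, Fgfr4 and Fgfrl1 lie above 0, that of Fgfr3 from 0.29 to 0.62, and those of the other 7 genes include 0.

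The promoters of the 3 receptors whose groups did not overlap are shown with that of Fgfr2, whose groups did, so that the sequences before their starts can be compared. Each is the 250 bases before a RefSeq transcription start in GRCm38.p6, written 5′ to 3′ on the gene's strand. Capitals mark the GC box, GGGCGG on either strand, a short sequence known to bind Sp1-type factors.
Fgfr3, chr5:33721474-33721723, plus strand: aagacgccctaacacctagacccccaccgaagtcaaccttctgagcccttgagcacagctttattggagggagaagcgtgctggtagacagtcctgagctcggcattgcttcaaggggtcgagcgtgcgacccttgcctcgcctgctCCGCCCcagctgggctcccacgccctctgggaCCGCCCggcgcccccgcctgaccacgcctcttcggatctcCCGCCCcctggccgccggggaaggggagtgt
Fgfrl1, chr5:108693979-108694228, plus strand: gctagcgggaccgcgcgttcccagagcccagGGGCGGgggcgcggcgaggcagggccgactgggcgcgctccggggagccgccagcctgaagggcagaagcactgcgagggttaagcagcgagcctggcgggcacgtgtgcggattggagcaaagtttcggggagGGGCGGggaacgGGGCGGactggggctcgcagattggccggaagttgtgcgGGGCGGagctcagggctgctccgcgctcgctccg
Fgfr4, chr13:55152568-55152817, plus strand: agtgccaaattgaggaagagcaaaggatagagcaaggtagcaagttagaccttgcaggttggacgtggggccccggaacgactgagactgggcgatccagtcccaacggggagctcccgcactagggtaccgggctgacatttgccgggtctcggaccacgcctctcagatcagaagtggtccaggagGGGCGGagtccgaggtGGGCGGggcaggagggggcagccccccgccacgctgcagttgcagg
Fgfr2, chr7:130266809-130267058, minus strand: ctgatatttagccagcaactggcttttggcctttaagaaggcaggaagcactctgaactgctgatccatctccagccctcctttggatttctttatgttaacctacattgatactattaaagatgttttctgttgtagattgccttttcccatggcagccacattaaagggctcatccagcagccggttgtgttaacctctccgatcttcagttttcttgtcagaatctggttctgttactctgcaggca

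The Fgfr3 window held 3 GC boxes, beginning 103, 71 and 31 bases before the start, the Fgfrl1 window 4 and the Fgfr4 window 2, whereas the Fgfr2 window held 0. A GC box was present in 32.7% of the 32841 windows of this length. GC content was 66.8% for Fgfr3, 73.6% for Fgfrl1, 64.0% for Fgfr4 and 44.0% for Fgfr2, with a median of 52.4% over all windows. A second RefSeq start of Fgfr3 had 2 overlapping GC boxes and 72.8% GC. Which start these cells use, for Fgfr3, Fgfr2 or the other genes, is not known from the arrays. The windows of the ligands Fgf2, Fgf18 and Fgf10, whose groups overlapped, each held 1 GC box, and those of Fgf7 and Fgf9 held 0, so a GC box was not particular to the receptors that lay higher. Fgf18 had the highest GC content of these windows, 77.2%. RefSeq windows were found for 9 of the 10 genes, all but Fgfr1. Among receptors whose groups overlapped, only the Fgfr2 window could therefore be examined.

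Other short motifs were searched on both strands of the same windows. The TATA box (TATAAA, in 12.4% of all windows), the AP-1 site (TGANTCA, 6.75%), the cAMP response element (TGACGTCA, 1.55%) and the Runx site (TGTGGT, 14.0%) had 0 matches in any of the 10 windows. The CCAAT box (CCAAT, 33.9%) matched once in Fgfr3 and Fgf7 and 2 times in Fgfrl1. The ETS core (CGGAA, 25.2%) matched once each in Fgfrl1 and Fgfr4. The hypoxia response core (ACGTG, 16.6%) matched 2 times in Fgfrl1, on opposite strands of 1 palindrome that is also an E-box, and once in Fgfr4 and Fgf9. The E-box (CANNTG, 66.2%) matched once in Fgfr3, Fgfrl1, Fgfr2 and Fgf7 and 2 times in Fgfr4 and Fgf10. A match describes letters in the window only.

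Among the ligands, Fgf2, which osteoblasts store in bone matrix, was at 7.65, 7.48 and 7.84 in DMSO 1 to 3 and at 7.78, 7.55 and 7.71 in NU7441 1 to 3. The NU7441 values all lay inside the range of the controls. Its difference of 0.023 (SE 0.11, n = 3 each) had a 95% interval from 0.85 to 1.22-fold.

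Fgf18, a ligand of FGFR3 in cartilage that is needed for bone formation, was at 7.04, 6.84 and 7.02 in DMSO 1 to 3 and at 6.94, 7.10 and 6.74 in NU7441 1 to 3. The highest and the lowest of the 6 values were both NU7441 arrays. The difference was -0.035 (SE 0.11, n = 3 each), with a 95% interval from 0.82 to 1.16-fold.

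Fgf9, another ligand of FGFR3, was at 5.20, 4.95 and 4.92 in DMSO 1 to 3 and at 5.08, 5.34 and 5.39 in NU7441 1 to 3. NU7441 1 lay below DMSO 1, so the groups overlapped. The difference of 0.24 (SE 0.11, n = 3 each) was the largest among the 5 ligands, with a 95% interval from 0.98 to 1.43-fold (limma adjusted p = 0.762). Same-numbered arrays differed by -0.12, 0.39 and 0.46. Its mean lay under the lower quartile of all genes, 5.46, where a signal may be background.

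Fgf7, a mesenchymal factor that acts on epithelia, was at 11.540, 11.319 and 11.450 in DMSO 1 to 3 and at 11.386, 11.298 and 11.450 in NU7441 1 to 3. The groups overlapped, with a difference of -0.059 (SE 0.082, n = 3 each) and a 95% interval from 0.84 to 1.10-fold. The epithelial markers had mean levels from 6.22 to 6.38 in DMSO and from 6.32 to 6.39 in NU7441 over 4 of 4 markers.

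Fgf10, the related mesenchymal factor of limb and lung budding, was at 5.56, 5.34 and 5.25 in DMSO 1 to 3 and at 5.30, 5.55 and 5.13 in NU7441 1 to 3, differing by -0.053 (SE 0.13, n = 3 each). Its second probe set was at 5.49, 5.40 and 5.45 in DMSO and at 5.08, 5.47 and 5.10 in NU7441, which gave -0.23 (SE 0.11, n = 3 each). The probe sets shared a direction but differed in size, and both had means under the lower quartile of all genes. For Fgf2, Fgf7, Fgf18 and the first Fgf10 probe set the adjusted p in limma lay between 0.912 and 0.975. The sign of the Fgf2 difference turned with array weights (-0.024) and when DMSO 2 (-0.067) or NU7441 1 (-0.028) was left out, that of Fgf18 without DMSO 1 (0.0025) or NU7441 3 (0.058), and that of Fgf10 without DMSO 1 (0.035) or NU7441 3 (0.045).

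The rest of the FGF pathway was taken from 5 lists by role, with 83 of 90 genes measured. None passed over all genes, and 9 of the 83, or 10.8%, had an unadjusted p under 0.05, against 6.79% of all genes. These were 2 higher and 7 lower with NU7441. Outside the ERK feedback genes and targets only Map2k1, Fgfbp1 and Gab1 were at that p. Of the 7 lower genes, 6 were ERK feedback genes and targets. That list had 12 of 15 genes lower and 3 higher with a median of -0.14, and 6 lower at an unadjusted p under 0.05 against 3.30% of all genes. Spry4, a Sprouty inhibitor of receptor tyrosine kinase signalling, was at 8.36, 8.33 and 8.58 in DMSO 1 to 3 and at 8.07, 7.86 and 7.68 in NU7441 1 to 3, with all NU7441 values below the controls (difference -0.55, SE 0.12, limma adjusted p = 0.606). Its relatives Spry1 and Spry2 differed by -0.46 (SE 0.12) and -0.32 (SE 0.092), and Dusp5, a nuclear phosphatase of ERK, by -0.24 (SE 0.058), each with groups that did not overlap. Dusp6, the cytoplasmic ERK phosphatase often used as a readout of FGF signalling, differed by -0.0053 (SE 0.15). Over all alternatives between 5 and 8 genes of this list were lower at an unadjusted p under 0.05 and 0 were higher.

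**Figure D3:**
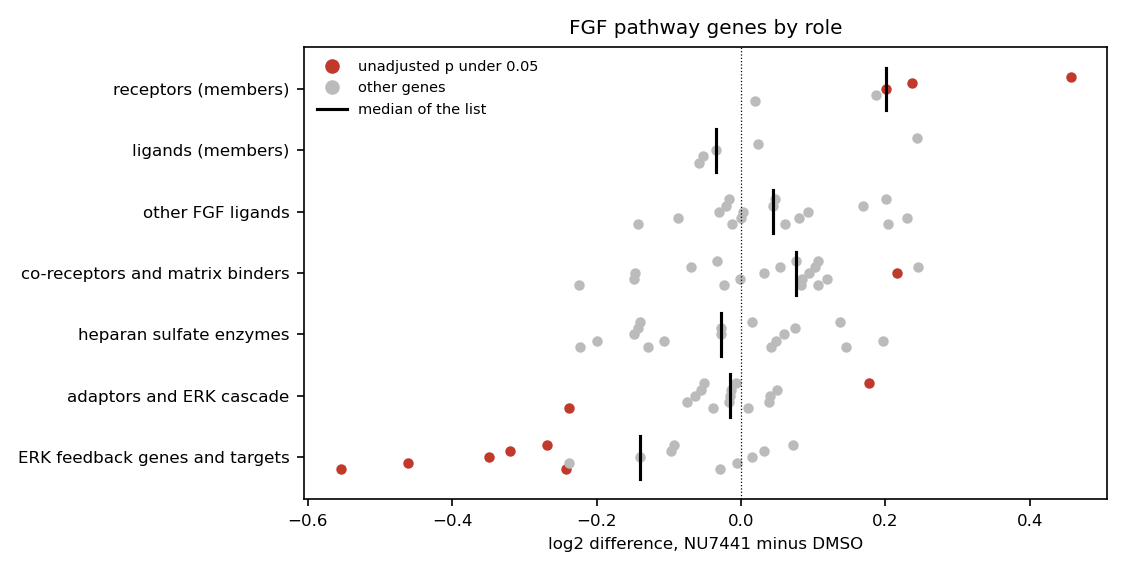
Log2 difference, NU7441 minus DMSO, of each measured FGF pathway gene by role, in red where the unadjusted p was under 0.05, with the median of each list as a bar. Receptors lie to the right with a median of 0.20 and ERK feedback genes and targets to the left with a median of -0.14.

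The other 17 FGF ligands were 11 higher and 6 lower with 0 at an unadjusted p under 0.05 and a median of 0.045. The smallest p in that list belonged to Fgf3 at 0.20 (SE 0.097), Fgf20 at 0.20 (SE 0.11), Fgf16 at 0.23 (SE 0.15) and Fgf13 at 0.17 (SE 0.11), all with overlapping groups. Fgf23, the phosphate-regulating hormone of osteocytes, differed by -0.14 (SE 0.093).

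Co-receptors and matrix binders were 12 higher and 7 lower with a median of 0.076. One, Fgfbp1, a carrier that frees FGFs from matrix, had an unadjusted p under 0.05, with a difference of 0.22 (SE 0.078) at a signal of 4.57 in DMSO, under the lower quartile of all genes. The syndecans Sdc3 and Sdc2, cell surface heparan sulfate proteoglycans, differed by 0.25 (SE 0.12) and -0.15 (SE 0.080), and Kl, the FGF23 co-receptor klotho, by -0.22 (SE 0.11).

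Enzymes that build or trim heparan sulfate were 8 higher and 9 lower with 0 of 17 at an unadjusted p under 0.05. Their median was -0.028 and turned to 0.0030 with quantile normalization. Glce, the glucuronyl epimerase, differed by -0.22 (SE 0.11), Hs3st1 by 0.20 (SE 0.11), the chain polymerase subunit Ext1 by -0.13 (SE 0.077) and Ndst2 by -0.11 (SE 0.066).

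Adaptors and the ERK cascade were 5 higher and 10 lower over 15 measured genes, with a median of -0.015 that turned to 0.013 with quantile normalization. Map2k1, the kinase MEK1 that activates ERK, differed by -0.24 (SE 0.085), and the docking protein Gab1 by 0.18 (SE 0.071), each with an unadjusted p under 0.05 and groups that did not overlap. The exchange factors Sos2 and Sos1, which load Ras, differed by -0.075 (SE 0.063) and -0.063 (SE 0.064).

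Osteoblast markers had higher means with NU7441, by unequal amounts. Against each gene's mean over the 6 arrays, the median of the 10 osteoblast markers was -0.50, -0.47 and 0.18 in DMSO 1 to 3 and -0.031, 0.095 and 0.67 in NU7441 1 to 3. Those groups overlapped, but same-numbered arrays differed in 1 direction for most of these markers: Pth1r, the parathyroid hormone receptor, by 0.75, 0.87 and 0.80 and Alpl, alkaline phosphatase, by 0.48, 0.61 and 0.55. For Dmp1 they differed by 0.39, 0.75 and -0.73. Col1a1 and Col1a2 differed between the groups by only 0.044 (SE 0.058) and 0.038 (SE 0.058). With the replicate block 7 of the 10 markers had an unadjusted p under 0.05, all higher, against 9.37% of all genes. Without the block 1 marker had such a p, against 6.79% of all genes. With the block alone 0 markers had an adjusted p under 0.05 in limma. The block with an intensity trend and a robust prior called 5, against 0.451% of all genes. DMSO 3 had the highest osteoblast markers of the controls and the lowest Fgfr3, at 7.94 against 8.03 and 8.03. This is 1 array, and a relation between the 2 was not tested. All 10 osteoblast markers had a higher mean with NU7441. Their mean log2 signal per array ran from 9.96 to 10.81 in DMSO and from 10.44 to 11.15 in NU7441.

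Fgfr3 is also a chondrocyte gene, and the chondrocyte markers had 5 of 7 genes higher, with a mean level from 7.34 to 7.49 in DMSO and from 7.52 to 7.57 in NU7441. These means did not overlap, but the medians against each gene's mean, as given for the osteoblast markers, did. They were -0.13, -0.094 and 0.029 in DMSO 1 to 3 and -0.034, 0.062 and 0.046 in NU7441 1 to 3. Mean levels of the macrophage markers did not overlap either, from 6.22 to 6.32 in DMSO and from 6.19 to 6.21 in NU7441. Of the 7 chondrocyte markers 2, Matn1 and Col10a1, had an unadjusted p under 0.05, against 6.79% of all genes. Matn1 differed by 0.23 (SE 0.085) at a signal of 4.99 in DMSO, under the lower quartile of all genes. Col10a1, of hypertrophic chondrocytes, differed by 0.47 (SE 0.19), but same-numbered arrays by 0.88, 0.71 and -0.17. Col2a1, the cartilage collagen, differed by 0.28 (SE 0.14), whereas Acan (aggrecan) and Sox9 differed by -0.035 (SE 0.10) and -0.017 (SE 0.074). Among the adipocyte, skeletal muscle, macrophage, endothelial and epithelial markers, 1 gene had an unadjusted p under 0.05, against 6.79% of all genes. These lists held 5, 5, 5, 4 and 4 measured genes. The gene was the adipocyte fatty acid carrier Fabp4 at -0.99 (SE 0.19), with means of 5.87 in DMSO and 4.87 in NU7441. Of the 5 adipocyte markers 4, Fabp4 among them, had a mean under the lower quartile of all genes, 5.46, where a signal may be background. The other 4 adipocyte markers measured went the other way, Lpl at 0.18 (SE 0.11), Plin1 at 0.13 (SE 0.11), Adipoq at 0.075 (SE 0.14) and Pparg at 0.016 (SE 0.090), and the list's median was 0.075. The part of these markers in the Fgfr3 difference was not tested. On RNA of whole cultures, more cells with the transcript and more transcript per cell cannot be told apart.

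**Figure D4:**
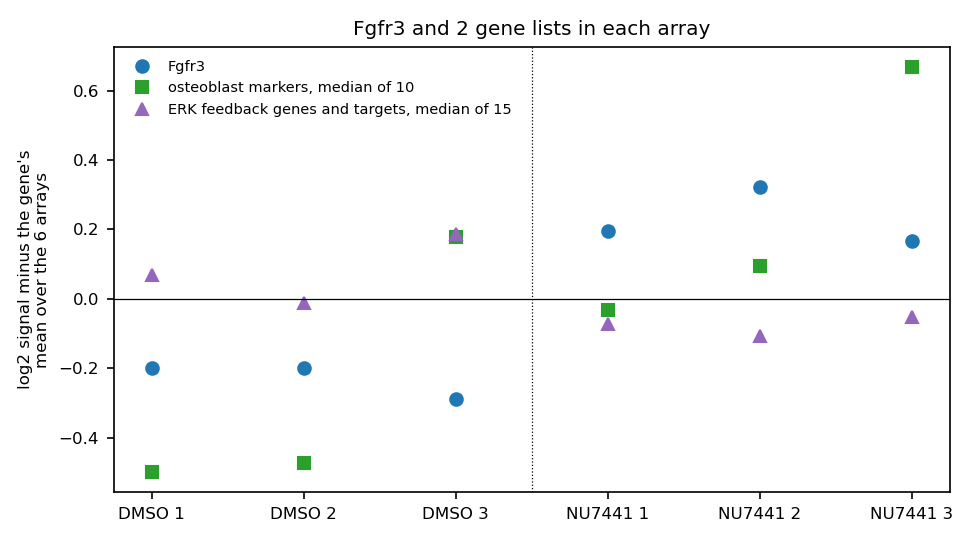
Log2 signal of Fgfr3 and median of 2 gene lists in each array, each gene relative to its mean over the 6 arrays. Fgfr3 is below 0 in all 3 DMSO arrays and above 0 in all 3 NU7441 arrays, while the osteoblast markers run from -0.50 to 0.18 in DMSO and from -0.031 to 0.67 in NU7441.

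Profiles most like that of Fgfr3 were looked for over the 6 arrays, by the smallest root-mean-square difference of log2 values centred on each gene's mean. The closest were Elavl3, a neuronal RNA-binding protein gene, at 0.053, the tubulin gene Tuba1b at 0.062 and Ehd3, of endosomal transport, at 0.072. Their differences between the groups were 0.37 (SE 0.078), 0.37 (SE 0.074) and 0.39 (SE 0.065), and like Fgfr3 they had an adjusted p of 0.598 in limma. For Fgfr4 the closest were Il1f6, an interleukin-1 family cytokine gene, at 0.012, Dhh (desert hedgehog) at 0.019 and Gsdmcl1 at 0.024, with differences of 0.19 (SE 0.070), 0.21 (SE 0.064) and 0.20 (SE 0.068). Each of these 6 likenesses was picked as the closest among all named genes and rests on 6 arrays.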

How the data were processed

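Total RNA of whole MC3T3-E1 cells was labelled with biotin and prepared to the array maker's (Affymetrix) specifications, per the labels. The authors deposited 1 value per probe set and array, which are on a log2 scale by their range. How the authors corrected, summarised and normalized the deposited log2 values is not given in the sources used here, and no further normalization was applied. Of 41345 probe sets, 23521 carried 1 gene symbol in the platform annotation, and a gene was represented by the brightest of its probe sets on average. All 22180 genes were fitted with limma 3.58.1 under R 4.3.3 (lmFit then eBayes, a two-sided test of group with no other term, Benjamini-Hochberg over all genes, threshold 0.05), and no filter on level was used. Errors of differences are moderated standard errors (SE), and intervals are 95% intervals from the same fit. The fit was tested on simulated data.

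Same-numbered arrays of the 2 groups deviated from their group means together over genes (r = 0.149, 0.169 and 0.339 for numbers 1, 2 and 3), so the numbers may pair the samples. No label states this pairing. The main fit therefore ignored it, as do its SEs, intervals and p-values, and the replicate block was tried as an alternative fit. Also tried were leaving out each array, array weights, a trend of variance with intensity plus a robust prior (alone or with the block), median centring, quantile normalization, cutting dim genes, and the mean or the other of a gene's probe sets.

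The members, gene lists and alternatives were chosen with earlier results of these data known. Named were all members, up to 4 genes of each pathway list by smallest p, and, for the 2 members with the smallest p, the 3 genes with the most similar profile, passing over predicted genes, small RNAs, immunoglobulin and olfactory receptor genes. The named marker genes, Fgf23 and Dusp6 were picked from their lists after their values were seen. Promoter windows are the RefSeq sequences of build GRCm38.p6, cut to the 250 bases before each start. Plots used matplotlib 3.10.9 and Python 3.11.15.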

Additional observations from a re-analysis of the deposited data

How the results depend on the processing

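Of 146 values of the 10 genes under the alternatives, 137 kept their direction and 9 did not, and 1 had an adjusted p under 0.05 in limma. That one was Fgfr3, at 0.46, with the replicate block, an intensity trend and a robust prior, which also called 100 genes in all and placed 13 other pathway genes lower at an unadjusted p under 0.05 in place of 7. The replicate block alone changed no call. Array weights reversed Fgfr1 to -0.0054 and Fgf2 to -0.024. Leaving out 1 array moved Fgfr1 between -0.034 and 0.058, Fgf2 between -0.067 and 0.12, Fgf18 between -0.12 and 0.058 and Fgf10 between -0.16 and 0.045. Fgfr3 moved between 0.41 and 0.49. The count of the 10 genes higher at an unadjusted p under 0.05 was between 1 and 4 with 1 array left out, and that of other pathway genes between 0 and 3. The latter was 1 in place of 2 after centring arrays on the median, and also when the fit kept the brightest 75 or 50 percent of genes. Those filters removed Fgfbp1, which was higher at that p in the main fit. Of the 10 genes they removed Fgf9 and Fgf10, the stricter one Fgfr4 too. For the other changes the cause was not tested. Signal over background was not analysed here and limits what can be said of Fgfr4, Fgf9 and Fgf10.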
